A study of Mus musculus with 24 samples.

Results

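Bile acid transport and sensing along the mouse gut was followed through 4 genes: Slc51a and Slc10a2, which encode bile acid transporters, and the nuclear receptor genes Nr1h4 and Nr0b2. Probe sets were taken when the platform annotation gave exactly 1 of these symbols. This found 1 probe set for each gene, 4 of the 12488 on the array. All 4 were among the 9033 probe sets bright enough to be tested, which means a signal above 51.5 on at least 3 arrays. Slc10a2 passed through only 4 of its 24 arrays.

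Whole tissue was taken from 4 places in the digestive tract, and its total RNA was hybridised to 24 Affymetrix arrays. The corpus was stomach without the antrum. The jejunum was the small intestine apart from its first 4 cm and last 2 cm, so that it reached well beyond the textbook jejunum. The descending colon was the first 2 cm, and the rectum the last 1 cm, of the final 3 cm of the gut. Both conventional mice, colonised by gut bacteria, and germ-free mice, raised without any, gave all 4 regions, for 8 groups of 3 arrays. The sources used here do not give the strain, age or sex of the mice. The labels describe 4 tissues from each mouse but tie no array to a particular one. Arrays of different regions may thus share mice, and the main fit treats them as independent. Each p-value rests on the spread of arrays within groups, pooled over all 8 groups. An odd library can therefore widen the error of comparisons it is not part of. In whole tissue, fewer cells of a type and less RNA per cell cannot be told apart.

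Bile acids are made in the liver from cholesterol, released into the small intestine to help absorb fat, and taken up again mainly near its end. There the sodium-dependent carrier encoded by Slc10a2 brings them into the enterocyte, Fabp6 carries them through the cell, and the exporter formed by the products of Slc51a and Slc51b passes them to the blood. Inside the cell bile acids bind FXR, the receptor encoded by Nr1h4, which acts with a retinoid X receptor. FXR raises Slc51a, Fgf15 and Nr0b2, and SHP, the product of Nr0b2, is a receptor without a DNA-binding domain that represses other nuclear receptors. Gut bacteria deconjugate and dehydroxylate bile acids, which changes how strongly they activate FXR.

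Signals are linear intensities on the deposited scale, on which every array had a trimmed mean (middle 96% of its probe sets) of about 200.1. Array medians ran from 68.6 to 103.5. Signals under 21.2 were treated as equal at that floor. Region markers opposed the labels of 3 libraries. The library labelled conventional jejunum 3 had Apoa4, an apolipoprotein of fat absorption, at 13.8 and Hoxb13, a homeobox gene of the hindgut, at 1626. Its closest array was conventional rectum 2. The library labelled conventional rectum 1 had Apoa4 at 2766 and Hoxb13 at 41.7, and its closest array was conventional jejunum 1. The library labelled germ-free corpus 3 had the gastric proton pump subunit Atp4a at 176 and Hoxb13 at 1399. Its correlation with germ-free descending colon 3 over all tested probe sets was 0.987, the highest of any pair of arrays. In a library whose markers agreed only in part with its label, germ-free descending colon 1, Hoxb13 was at 112, the colonic carbonic anhydrase Car1 at 6818 and the enterocyte fatty acid binding protein Fabp2 at 4005. Markers of another region also stood above background in 3 further libraries: Atp4a was at 1968 on germ-free rectum 1, where the summed signal of 5 corpus markers was 7820.1, and at 874 on germ-free jejunum 3, where that sum was 3120.3, and Car1 was at 1432.5 on germ-free corpus 2. These 3 had the markers of their own region as well. All libraries were kept under their labels. Results on the 21 arrays without the 3 libraries stand beside them, a choice made after seeing the data that raises differences between regions by construction.

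The RefSeq promoter windows of Slc51a, Slc10a2 and Nr1h4 are shown because Slc51a and Nr1h4 passed a test between regions and Slc10a2 followed Slc51a across the arrays. Each holds 250 bases before and 50 after a transcript start, 5′ to 3′ on the gene's strand, in build GRCm38.p6. Capitals mark exact matches on either strand to AGGTCA, the core element that many nuclear receptors bind, GTTAAT, part of the HNF1 site, AGATAA, bound by factors of the GATA family, and TTTATG, a site of caudal-type homeobox factors. Of 32851 RefSeq windows, 16.3% held AGGTCA, 7.1% GTTAAT, 11.2% AGATAA and 11.9% TTTATG.
Slc51a at chr16:32487830-32488129, minus strand: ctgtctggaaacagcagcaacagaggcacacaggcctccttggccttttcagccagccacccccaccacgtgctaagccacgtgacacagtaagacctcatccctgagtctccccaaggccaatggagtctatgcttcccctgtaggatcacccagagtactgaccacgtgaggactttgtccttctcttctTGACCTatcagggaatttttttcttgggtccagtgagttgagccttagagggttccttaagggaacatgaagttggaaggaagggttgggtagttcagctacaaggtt
Slc10a2 at chr8:5105238-5105537, minus strand: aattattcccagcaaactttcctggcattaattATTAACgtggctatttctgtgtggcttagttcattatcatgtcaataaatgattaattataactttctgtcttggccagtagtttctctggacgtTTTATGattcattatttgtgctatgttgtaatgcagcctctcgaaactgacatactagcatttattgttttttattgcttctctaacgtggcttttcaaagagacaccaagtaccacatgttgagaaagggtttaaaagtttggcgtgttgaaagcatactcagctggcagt
Nr1h4 at chr10:89506609-89506908, minus strand: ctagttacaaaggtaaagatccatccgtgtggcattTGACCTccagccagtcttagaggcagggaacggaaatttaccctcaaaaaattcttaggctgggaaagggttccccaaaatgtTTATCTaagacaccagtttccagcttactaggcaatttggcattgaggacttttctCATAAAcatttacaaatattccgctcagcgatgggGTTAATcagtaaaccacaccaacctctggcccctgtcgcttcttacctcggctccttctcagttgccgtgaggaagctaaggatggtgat
In the Slc51a window the core element was found once, on the opposite strand, 58 bases before the start. The Slc10a2 window held GTTAAT on the opposite strand 217 bases before the start and TTTATG 122 bases before it, with no core element. The Nr1h4 window, which lies inside the span of the gene and not at its outermost start, held all 4: the core element at -214, AGATAA at -131 and TTTATG at -75 on the opposite strand, and GTTAAT at -40. No matches overlapped. IR1, a pair of facing core elements 1 base apart, was searched with up to 2 mismatches in its 12 letters, and CAAAGTCCA, an HNF4 site, exactly. Neither was found in any of the 4 windows, against 1.14% and 0.475% of all windows, and the Nr0b2 window held no match to any of the 6 motifs searched. These matches describe letters in the window and say nothing of binding.

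Slc51a, the bile acid exporter subunit, was bright on 5 of the 6 arrays labelled jejunum, and 16 of the 18 arrays of the other regions read 131 or less. Its signal was 2780.2, 4139 and 37.4 on conventional jejunum 1, 2 and 3, and 1486, 3251 and 2820.3 on germ-free jejunum 1, 2 and 3. The low array is the library labelled conventional jejunum 3, the one with hindgut markers. In the corpus the signal was 29.1, 46.4 and 20.0 in conventional mice and 60.7, 44.1 and 104 in germ-free mice. The highest of these 6 came from the library labelled germ-free corpus 3, and it lay next to the 95.5 of germ-free descending colon 3.

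In the last part of the gut the exporter subunit was uneven. The 3 conventional descending colon arrays read 37.3, 52.0 and 27.6 for Slc51a, and the germ-free arrays 1012, 131 and 95.5, so that the ranges did not overlap. The value of 1012 came from germ-free descending colon 1, the array with Hoxb13 at 112. The conventional rectum arrays read 3867, 29.0 and 49.2, where the first is the library with small intestinal markers, and the germ-free rectum arrays read 47.2, 13.9 and 55.2.

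By group mean the Slc51a signal was 2519 ± 920.0 (SD, n = 3) in germ-free jejunum, 2319 ± 2089 in conventional jejunum, 1315 ± 2210 in conventional rectum and 413 ± 519 in germ-free descending colon. Germ-free corpus followed at 69.7 ± 31.1, conventional descending colon at 39.0 ± 12.3, germ-free rectum at 38.8 ± 21.9 and conventional corpus at 31.8 ± 13.4. The ranges of each 2 neighbours in this order overlapped. The array of lowest signal read 13.9 and the brightest 4139, a range of 195-fold once values under the floor were set to it.

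Slc10a2, the uptake carrier, was dim throughout. Of 24 arrays, 17 lay at or under the floor, and the brightest read 87.5. Conventional jejunum 1, 2 and 3 read 28.4, 87.5 and 0.4, and germ-free jejunum 1, 2 and 3 read 0.5, 40.9 and 61.2. The low arrays were the library with hindgut markers and germ-free jejunum 1. Germ-free descending colon read 74.3, 25.4 and 16.1, against 4.4, 3.2 and 4.1 in the conventional descending colon. The library labelled conventional rectum 1 read 70.9, and the other 5 rectum arrays between 0.6 and 3.4. The corpus arrays of both kinds of mice read between 0.9 and 13.5.

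By group mean Slc10a2 was 38.8 ± 44.5 in conventional jejunum, 38.6 ± 31.3 in germ-free descending colon, 34.2 ± 30.9 in germ-free jejunum and 24 ± 40.6 in conventional rectum. The other 4 groups had means of 6.10 or less, under the floor. Neighbours in this order overlapped throughout.

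**Figure D1:**
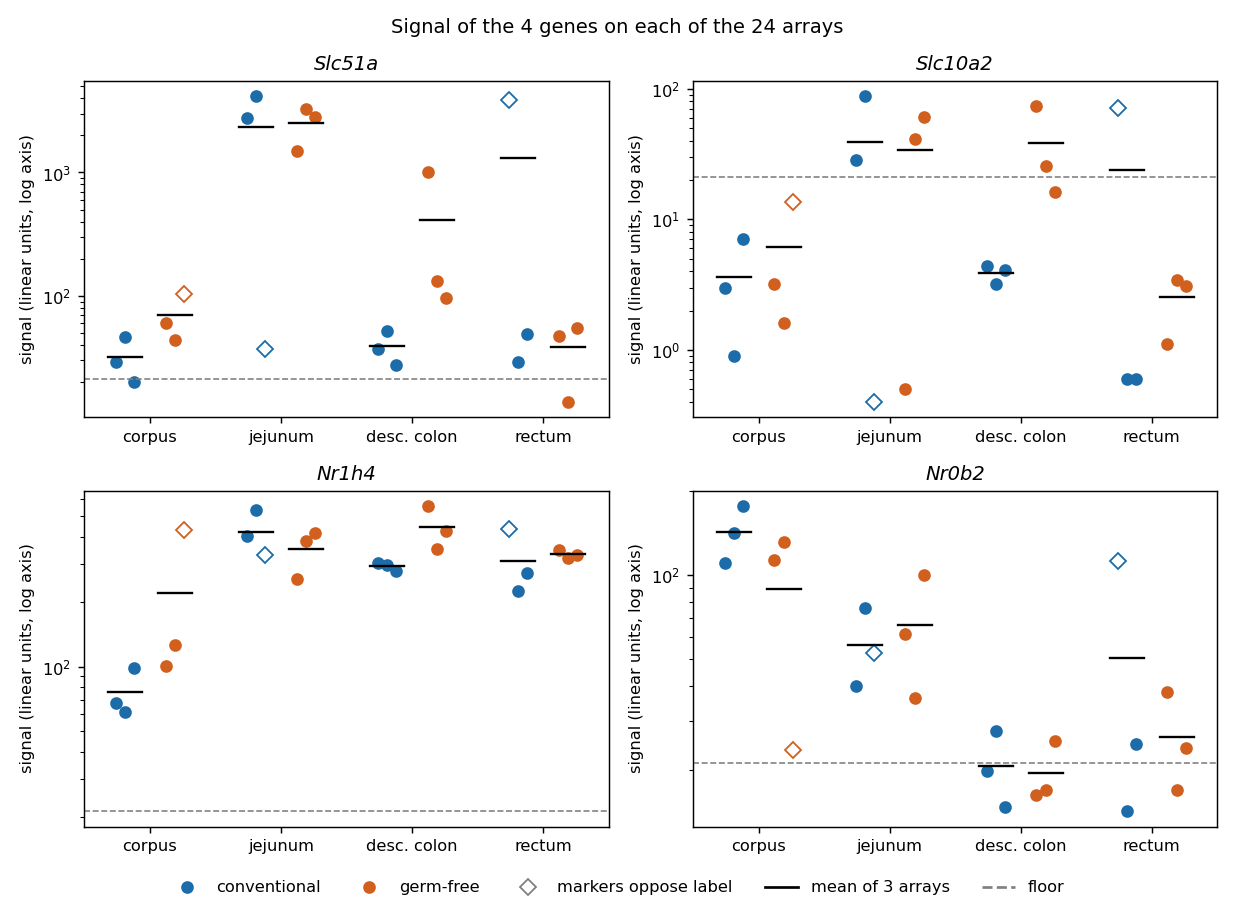
Signal (linear units, log axis) of Slc51a, Slc10a2, Nr1h4 and Nr0b2 on the 24 arrays by region, blue for conventional and orange for germ-free mice, with the mean of 3 arrays as a bar, the floor of 21.2 dashed and the 3 libraries whose markers opposed their labels as open diamonds. Slc51a reads 1486 or more on 5 of 6 jejunum arrays, and the open diamonds for jejunum (37.4) and rectum (3867) sit apart from their groups.

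Carriers of the same uptake route were read beside the 4 genes to place the small intestinal libraries along its length. Fabp6, the cytosolic bile acid carrier of the distal small intestine, was at 4220.1 and 11291 on conventional jejunum 1 and 2, at 7309 and 9040.5 on germ-free jejunum 2 and 3 and at 7316 on the library labelled conventional rectum 1. It read 82.6 on germ-free jejunum 1, within the 25.7 to 167 of the remaining arrays. Germ-free jejunum 1 therefore had the enterocyte marker Apoa4 at 12194 and Slc51a at 1486 with Fabp6, Slc10a2 (0.5) and the enterocyte hormone Fgf15 (11.9) at low signal. Germ-free descending colon 1 had Slc51a at 1012 and Slc10a2 at 74.3 with Fabp6 at 100.3 and Fgf15 at 4.7. The Fabp6 values are those of 1 probe set. Another Fabp6 probe set read 0.3 to 5.8 over all arrays and was not tested.

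**Figure D2:**
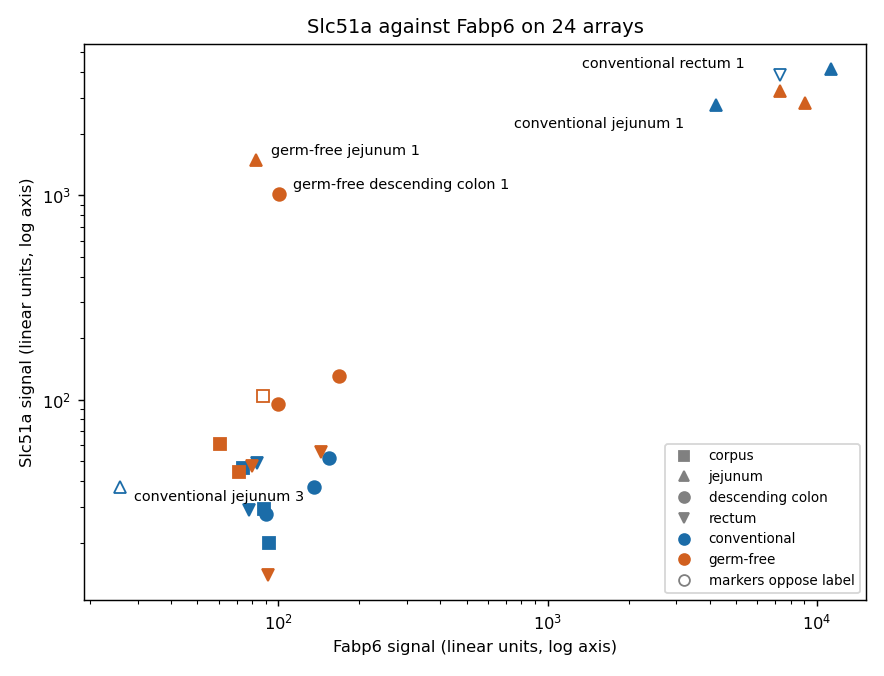
Slc51a signal against Fabp6 signal on the 24 arrays (both log axes), with symbols for region, colours for microbial state and open symbols for the 3 libraries whose markers opposed their labels. High signal of both marks 5 arrays, conventional rectum 1 among them; germ-free jejunum 1 and germ-free descending colon 1 have Slc51a at 1486 and 1012 with Fabp6 at 82.6 and 100.3.

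Nr1h4, the bile acid receptor FXR, was well above the floor on all 24 arrays. The conventional corpus was the dimmest group, at 67.3, 61.6 and 98.3. Germ-free corpus 1 and 2 read 100.8 and 126, and the library labelled germ-free corpus 3 read 434, next to the 427 of germ-free descending colon 3. Every germ-free corpus array thus lay above every conventional one. The jejunum read 407, 536 and 330.1 in conventional and 255, 383 and 421 in germ-free mice.

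Levels of the receptor in the last part of the gut were close to those of the jejunum. Conventional descending colon read 303, 298 and 279.7 for Nr1h4, and germ-free descending colon read 560.0, 354 and 427, with no overlap. Conventional rectum read 437, 225 and 271, where the highest is the library with small intestinal markers, and germ-free rectum read 349, 319 and 332. By group mean the order of the Nr1h4 signal was germ-free descending colon (447 ± 104), conventional jejunum (425 ± 104), germ-free jejunum (353 ± 87.1), germ-free rectum (333 ± 15.2), conventional rectum (311 ± 111), conventional descending colon (293 ± 12.2), germ-free corpus (220 ± 185) and conventional corpus (75.7 ± 19.8; each n = 3). Among neighbours in this order, only the last 2 groups did not overlap.

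Nr0b2, the repressor SHP, had its highest signals in the corpus. Conventional corpus read 111, 141 and 177 and germ-free corpus 113, 131 and 23.7, the low value being the library labelled germ-free corpus 3. The jejunum was intermediate, with 40.2, 76.0 and 52.5 in conventional and 61.7, 36.3 and 100 in germ-free mice. All 6 descending colon arrays lay between 14.8 and 27.6. The rectum read 14.3 to 38 on 5 arrays and 112.5 on the library labelled conventional rectum 1.

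By group mean Nr0b2 was 143 ± 33.0 in conventional corpus, 89.2 ± 57.4 in germ-free corpus, 66.0 ± 32.1 in germ-free jejunum and 56.2 ± 18.2 in conventional jejunum. Conventional rectum followed at 50.5 ± 53.9, germ-free rectum at 26.4 ± 10.6, conventional descending colon at 20.8 ± 6.44 and germ-free descending colon at 19.6 ± 5.04. Neighbours in this order overlapped. The regional order of the repressor was not that of Nr1h4, whose lowest group, conventional corpus, was the highest for Nr0b2.

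Regions were compared with limma on log2 of the floored signal, in 1 fit of all 24 arrays, and a gene was called at an adjusted p under 0.05 over the 9033 probe sets. The jejunum was set first against the mean of the other 3 regions over both kinds of mice. Slc51a was 19.2-fold higher there (log2 difference 4.26 ± 0.88 SE; limma adjusted p = 0.00177) and Nr1h4 was 1.61-fold higher (0.69 ± 0.22; limma adjusted p = 0.0284). Slc10a2 (0.61 ± 0.31; limma adjusted p = 0.164) and Nr0b2 (0.46 ± 0.34; limma adjusted p = 0.365) did not pass. In this comparison 2 of the 4 genes were called, beside 24.8% of all probe sets tested. The Nr1h4 call does not mark a jejunal peak. Its highest group mean was in germ-free descending colon (447), and its lowest were in germ-free and conventional corpus (220 and 75.7). Descending colon differed from jejunum by -0.51 ± 0.39 in conventional and 0.35 ± 0.39 in germ-free mice for Nr1h4, neither called.

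Without the 3 libraries the difference of Slc51a was 54.6-fold and that of Nr1h4 1.90-fold, and Slc10a2 also passed (0.91 ± 0.30; limma adjusted p = 0.0219), beside 34.1% of all probe sets. For Slc10a2 the libraries labelled conventional jejunum 3 and conventional rectum 1 read 0.4 and 70.9. Leaving them out thus raised its difference by construction. The Slc51a call held when each of the 24 arrays was left out in turn (highest limma adjusted p = 0.0119). The Nr1h4 call was lost without conventional jejunum 1 (adjusted p = 0.0626), conventional jejunum 2 (0.0995), germ-free jejunum 2 (0.0732) or germ-free jejunum 3 (0.0708) by limma. Its log2 difference then lay between 0.60 and 0.70.

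Against the corpus alone, Slc51a was higher in the jejunum of both kinds of mice. In conventional mice it was 24.7-fold higher (4.63 ± 1.52; limma adjusted p = 0.0382) and in germ-free mice 36.5-fold (5.19 ± 1.52; limma adjusted p = 0.0199). Without the 3 libraries these were 111-fold (3459 ± 961, n = 2, against 31.8 ± 13.4, n = 3) and 46.2-fold (limma adjusted p = 4.42e-07 and 5.99e-06). With all libraries the conventional call was lost without conventional corpus 1, 2 or 3 (limma adjusted p = 0.0874, 0.067 and 0.113) or conventional jejunum 1 or 2 (0.171 and 0.201). Its difference was 6.79 without conventional jejunum 3. The conventional call was lost too with the floor at the 40th percentile (limma adjusted p = 0.0556), with no filter (0.0792) and in a fit of the compared groups alone (0.135). The germ-free call was lost without germ-free corpus 1 or 2 or germ-free jejunum 2 (limma adjusted p = 0.0578, 0.0683 and 0.0631).

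Nr1h4 was 5.61-fold higher in conventional jejunum than in conventional corpus (2.49 ± 0.39; limma adjusted p = 0.000213), a call that held in all 17 alternatives tried (highest limma adjusted p = 0.00216). In germ-free mice it was 1.95-fold higher and did not pass (0.96 ± 0.39; limma adjusted p = 0.0804). The germ-free corpus group held the library labelled germ-free corpus 3, and without the 3 libraries the germ-free difference was 3.06-fold (1.61 ± 0.25; limma adjusted p = 5.91e-05). Whether this jejunal excess differed between the 2 kinds of mice was not tested by itself. The interaction test given with the microbial comparisons takes all 4 regions together.

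Nr0b2 was lower in conventional jejunum than in conventional corpus on every array, and the difference did not pass with all libraries (-1.37 ± 0.59; limma adjusted p = 0.118). It passed with the floor at the 40th percentile (limma adjusted p = 0.0102) and in a fit of the compared groups alone (0.0328). Without the 3 libraries it passed (-1.34 ± 0.39; limma adjusted p = 0.0161), and in germ-free mice it did not (-1.0 ± 0.39; limma adjusted p = 0.0643, against -0.22 ± 0.59 with all libraries). Slc10a2 passed in neither kind of mouse (limma adjusted p = 0.332 and 0.302 with all libraries).

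In the jejunum against the corpus, 2 of the 4 genes were called in conventional mice, beside 18.8% of all probe sets, and 1 of 4 in germ-free mice, beside 21.8%. On the 21 arrays these were 3 of 4 beside 25.8% and 2 of 4 beside 29.1%. The ranges of the 2 regions did not overlap for Nr1h4 and Nr0b2 in conventional mice, where 37.0% of all probe sets did not overlap, and for Slc51a in germ-free mice, where 28.1% did not.

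Between descending colon and jejunum none of the 4 genes was called with all libraries. In conventional mice limma called 0 of 9033 (0%), and an unadjusted p under 0.05 was reached by 989, Slc51a among them. Slc51a was 20.0-fold lower in the descending colon (-4.32 ± 1.52; limma adjusted p = 0.4), with the library with hindgut markers in the jejunum group. In germ-free mice it was 10.2-fold lower (-3.36 ± 1.52; limma adjusted p = 0.155) and Nr0b2 2.70-fold lower (-1.43 ± 0.59; limma adjusted p = 0.117), both at an unadjusted p under 0.05, beside 11.8% of probe sets called. The ranges did not overlap for Nr1h4 and Nr0b2 in conventional mice (10.3% of all probe sets) and for Slc51a and Nr0b2 in germ-free mice (29.7%).

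On the 21 arrays Slc51a and Nr0b2 fell from jejunum to descending colon in both kinds of mice. Slc51a was 90.0-fold lower in conventional mice (limma adjusted p = 2.12e-06) and 10.2-fold lower in germ-free mice (limma adjusted p = 0.000815), or 21.3-fold when germ-free descending colon 1 was left out as well. Nr0b2 was 2.39-fold lower in conventional mice (20.8 ± 6.44, n = 3, against 58.1 ± 25.3, n = 2; limma adjusted p = 0.0446) and 2.70-fold lower in germ-free mice (19.6 ± 5.04 against 66.0 ± 32.1, each n = 3; limma adjusted p = 0.00706). These 2 of 4 genes stand beside 11.5% of all probe sets called in conventional and 19.4% in germ-free mice. The 3 libraries include no array of germ-free jejunum or descending colon, so the germ-free differences were the same as with all libraries. Only their pooled SE fell, from 1.52 to 0.63 for Slc51a and from 0.59 to 0.35 for Nr0b2. Nr1h4 was 1.59-fold lower in conventional (limma adjusted p = 0.0956) and 1.27-fold higher in germ-free descending colon (limma adjusted p = 0.303), and passed in neither.

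Between rectum and descending colon none of the 4 was called in conventional or germ-free mice (limma adjusted p = 1 for each), and none had an unadjusted p under 0.05. In each of these comparisons 0.0111% of probe sets were called. In germ-free mice the rectum lay below the descending colon on every array for Slc51a, 38.8 ± 21.9 against 413 ± 519, and for Nr1h4, 333 ± 15.2 against 447 ± 104. No overlap of this kind was seen for 6.58% of all probe sets.

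**Figure D3:**
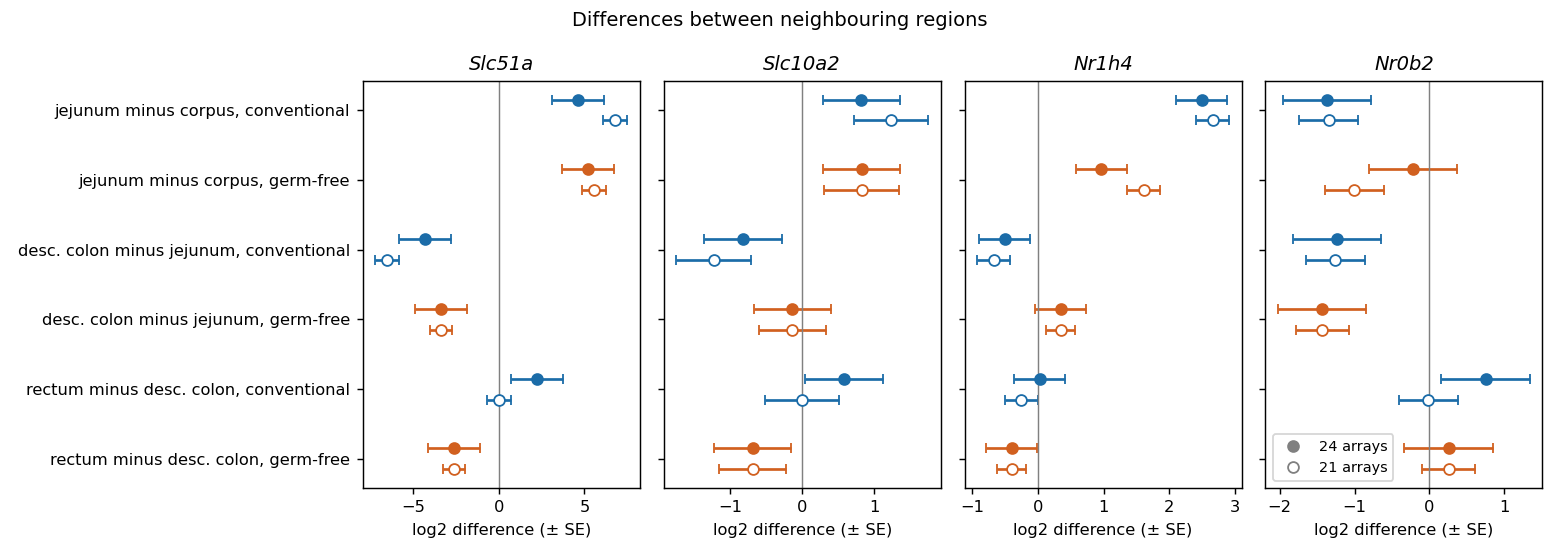
Log2 difference (± SE) between neighbouring regions for each of the 4 genes, blue in conventional and orange in germ-free mice, filled with all 24 arrays and open with the 21 left after taking out 3 libraries. Slc51a is 4.63 and 5.19 higher in jejunum than corpus with all arrays, Nr1h4 2.49 and 0.96 higher, and the Nr0b2 differences between descending colon and jejunum are -1.23 and -1.43.

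Smooth muscle markers differed between the same libraries. The summed signal of Acta2, Myh11, Tagln, Cnn1 and Des, all 5 above 51.5 on every array, was 3411 to 6311 on the 5 jejunum arrays with jejunum markers and 4676 on the library labelled conventional rectum 1, against 6884 to 21153 on the others. This sum moved with the regional differences of Slc51a, and the part of muscle content in them was not tested. Of 7 hepatocyte markers 6 were on the array, with sums of 213 to 766 and at most 3 above 51.5 on any array. Leukocyte markers, 3 genes on the array, summed to 5239 and 4567 on conventional jejunum 1 and 2, to 2051 on the library labelled conventional jejunum 3 and to 5601 on the one labelled conventional rectum 1, against 1219 to 1630 on the germ-free jejunum. Pancreas markers, also 3 genes, ran from 168 on conventional jejunum 1 to 16427 on the library labelled conventional jejunum 3, and were at 261 to 4386 on the germ-free jejunum. In the jejunum the leukocyte sum was thus higher on every conventional than on every germ-free array, while the ranges of the pancreas sum overlapped. The part of either in the results was not tested.

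The second question of the design was whether the presence of a microbiota changes these levels. In no region did limma call any of the 4 genes between germ-free and conventional mice. Background calls were also few: 0% of probe sets in the corpus (817 at an unadjusted p under 0.05), 0.465% in the jejunum, 0.0111% in the descending colon and 0.0111% in the rectum. Only Nr1h4 in the corpus had an unadjusted p under 0.05 among the 4 genes.

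Nr1h4 was 2.39-fold higher in germ-free than in conventional corpus (220 ± 185 against 75.7 ± 19.8, each n = 3; 1.25 ± 0.39; limma adjusted p = 0.379). Without germ-free corpus 1 the difference was 1.66 and passed (limma adjusted p = 0.0369). The group then still held the library labelled germ-free corpus 3, which read 434. Without only that library the difference was 0.61 (limma adjusted p = 0.834), and without the 3 libraries it was also 0.61 (limma adjusted p = 0.71). The ranges did not overlap with all libraries or without the 3, as for 13.1% of all probe sets with all libraries. In the descending colon Nr1h4 was 1.5-fold higher in germ-free mice (0.58 ± 0.39; limma adjusted p = 0.7).

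Slc51a in germ-free descending colon was 6.19-fold above conventional descending colon (2.63 ± 1.52; 95% interval -0.54 to 5.80; limma adjusted p = 0.664). Without the 3 libraries, none of them from these groups, the difference was the same with a smaller pooled SE (2.63 ± 0.63; limma adjusted p = 0.134). With only germ-free descending colon 1 left out the log2 difference was 1.57 (limma adjusted p = 0.777), and the other 2 germ-free arrays still lay above all 3 conventional ones. With the 3 libraries left out as well the difference was 1.57 ± 0.44 (limma adjusted p = 0.101). With all libraries the ranges of Slc51a and Nr1h4, 2 of the 4 genes, did not overlap there, beside 14.0% of all probe sets. Slc10a2 was at least 1.61-fold higher in germ-free descending colon (0.69 ± 0.54; limma adjusted p = 0.751), where all conventional arrays lay under the floor. This rested on germ-free descending colon 1, without which the log2 difference was 0.13. Nr0b2 differed there by -0.04 ± 0.59 (95% interval -1.27 to 1.19; limma adjusted p = 0.998).

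In the jejunum the ranges of all 4 genes overlapped between the 2 kinds of mice. The log2 difference of Slc51a was 1.66 ± 1.52 with all libraries (limma adjusted p = 0.705) and -0.51 ± 0.70 without the 3 libraries (2519 ± 920.0, n = 3, against 3459 ± 961, n = 2; limma adjusted p = 0.858), so that its direction rested on the library labelled conventional jejunum 3. Nr1h4 differed by -0.27 ± 0.39 (95% interval -1.08 to 0.53), Nr0b2 by 0.16 ± 0.59 (-1.07 to 1.39) and Slc10a2 by 0.0035 ± 0.54 (-1.12 to 1.13). These intervals allow changes of more than 2-fold in at least 1 direction for each gene.

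In the rectum the difference of Slc51a was -2.21 ± 1.52 with all libraries (limma adjusted p = 0.982) and 0.012 ± 0.70 without the library labelled conventional rectum 1 and the other two. Nr1h4 was 1.12-fold higher in germ-free rectum with all libraries (limma adjusted p = 0.985) and 1.35-fold without the 3 (333 ± 15.2, n = 3, against 248 ± 33.0, n = 2; limma adjusted p = 1).

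Averaged over the 4 regions, the log2 difference between germ-free and conventional mice was 0.43 ± 0.19 for Nr1h4 (95% interval 0.029 to 0.83; limma adjusted p = 0.245), 0.79 ± 0.76 for Slc51a (limma adjusted p = 0.611), 0.028 ± 0.27 for Slc10a2 (limma adjusted p = 0.974) and -0.35 ± 0.30 for Nr0b2 (limma adjusted p = 0.551). None of the 4 was called, beside 1.68% of all probe sets, and 1, Nr1h4, had an unadjusted p under 0.05. The interaction test, which asks whether the microbial difference varies between the regions, called none of the 4 (limma adjusted p from 0.907 for Nr1h4 to 0.983 for Nr0b2; 0 with an unadjusted p under 0.05), beside 0.0221% of all probe sets.

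**Figure D4:**
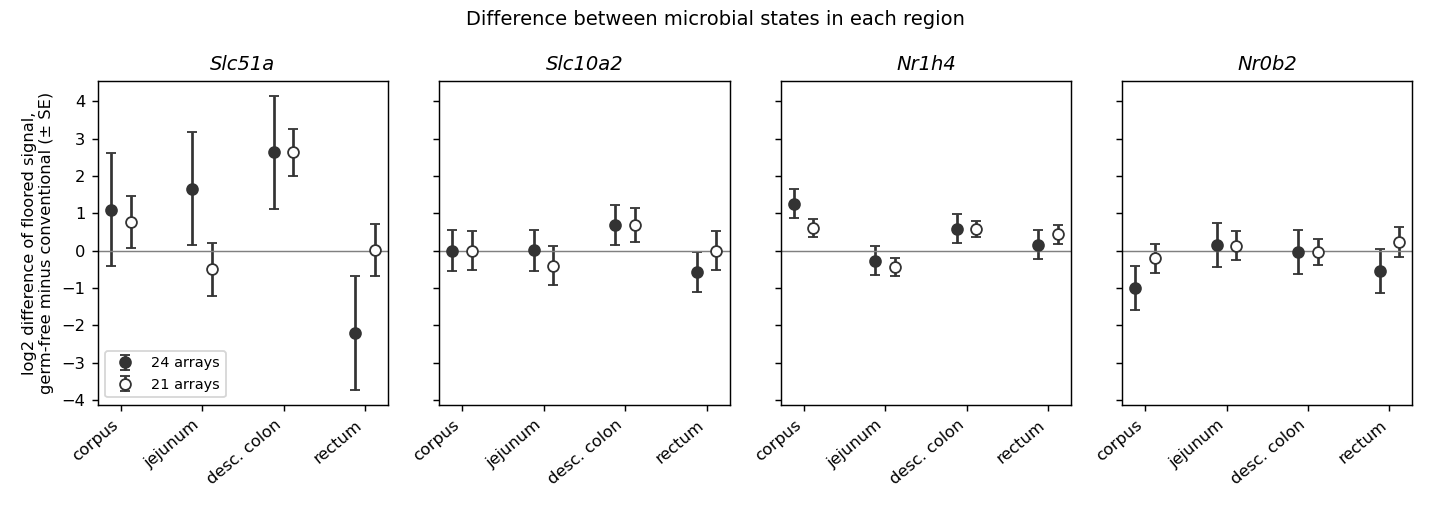
Log2 difference (± SE) of the floored signal between germ-free and conventional mice in each region for the 4 genes, filled with all 24 arrays and open with 21. Slc51a moves from 1.66 to -0.51 in the jejunum and from -2.21 to 0.012 in the rectum when 3 libraries are left out, and stays at 2.63 in the descending colon.

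The rest of the pathway was read from 4 lists of genes that exclude the 4 above. Of 19 further bile acid transporters and carriers, 7 were tested, each with 1 probe set. Of 14 genes of bile acid synthesis and conjugation, 6 were tested with 7 probe sets. Of 28 signalling genes, 18 were tested with 24 probe sets, and of 21 other reported FXR targets, 10 with 11 probe sets. Slc51b, the partner of Slc51a, and Abcb11, the bile salt export pump of the liver, were not analysed here.

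Among the other transporters, 3 probe sets were higher and 2 lower in the jejunum than in the mean of the other regions (median log2 difference 0.46, against -0.09 over all probe sets), beside 831 higher and 1405 lower of all 9033 (24.8%). Fabp6 was 11.2-fold higher (3.49 ± 1.07; limma adjusted p = 0.0221) and 37.3-fold without the 3 libraries, 2 of which read 25.7 and 7316 for it. Its call was lost when any 1 of the 4 jejunum arrays bright for it was left out. Abcc2, an apical exporter of conjugates, was 3.91-fold higher, and Abcg2, an apical efflux pump, 2.45-fold higher. Abcc3, a basolateral exporter of conjugates and bile acids, was 1.32-fold lower (limma adjusted p = 0.0419), and Slc10a6, a carrier of sulphated steroids in the family of Slc10a2, 1.84-fold lower.

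Against the corpus of conventional mice the drug exporter Abcb1a was at least 23.9-fold higher in the jejunum (593 ± 377 against 6.30 ± 1.44, each n = 3), Abcg2 14.8-fold higher and Slc10a6 10.5-fold lower (67.3 ± 34.5 against 655 ± 76.2). In germ-free mice Abcc2 was 8.13-fold higher (219 ± 10.4 against 22.5 ± 18.0), Abcg2 4.50-fold higher and Slc10a6 4.20-fold lower. The last 2 were 8.13-fold and 8.20-fold without the 3 libraries, and with all libraries both calls were lost without germ-free corpus 1, that of Slc10a6 also without germ-free corpus 2. From jejunum to descending colon of germ-free mice Abcc2 fell 5.96-fold and Abcc3 rose 1.73-fold (1985 ± 445 against 1130 ± 40.1). The basolateral exporters Abcc3 and Slc51a thus had opposite directions in that comparison, of which only the Abcc3 difference passed with all libraries (limma adjusted p = 0.0384), a call lost without any 1 of the 6 arrays compared.

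Synthesis genes had 4 of 7 probe sets higher and 0 lower in the jejunum than in the mean of the other 3 regions (median 0.67). In that comparison 24.8% of all probe sets were called. The 4 were Amacr, a racemase of side chain oxidation, 2.16-fold, both probe sets of the sterol carrier protein Scp2, 1.99-fold and 1.86-fold, and the peroxisomal enzyme Hsd17b4, 1.59-fold. Cyp7a1, the first enzyme of the liver pathway, read 39.6 at most and was not tested. Between jejunum and corpus Amacr alone passed, 3.21-fold higher in germ-free mice (147 ± 15.5 against 49.0 ± 31.6). That call was lost without the library labelled germ-free corpus 3, which read 12.8, or without germ-free jejunum 1 or 2. On the 21 arrays Amacr was 2.19-fold higher (limma adjusted p = 0.105), while Baat, the enzyme that conjugates bile acids, (2.41-fold; limma adjusted p = 0.018) and a probe set of Scp2 (1.70-fold; limma adjusted p = 0.0119) passed in germ-free mice and both probe sets of Scp2 in conventional mice.

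Of the 24 signalling probe sets, 9 were higher and 1 lower in the jejunum than in the mean of the other 3 regions (median 0.36), beside the same 24.8%. The higher ones were Nr1h3, the oxysterol receptor LXR alpha, 3.28-fold, both probe sets of the vitamin D receptor Vdr, 2.85-fold and 1.91-fold, the homeobox factor Cdx2, 2.05-fold, the xenobiotic receptors Nr1i2, 1.79-fold, and Nr1i3, 1.70-fold, the methyltransferase Prmt1, 1.48-fold, and Rxra, the partner of FXR, 1.32-fold. Fgf15 was the other, with a difference set by the floor, under which it lay on 17 of 18 arrays outside the jejunum and 3 of 6 in it. The coactivator Ncoa3 was 1.37-fold lower. Another tested probe set of Rxra was not called, and its lowest group mean was in the jejunum of each kind of mouse. It read 150 in conventional jejunum, against 198, 158 and 151 in corpus, descending colon and rectum. In germ-free mice it read 125, against 151, 151 and 148. The other tested probe sets of Nr1i3 were not called. The mean of the other 3 regions includes the corpus. By group mean a Vdr probe set read 5.77, 448 and 446 in conventional corpus, jejunum and descending colon, and Nr1h3 55.5, 263 and 133. Between descending colon and jejunum 0 of the 24 were called in conventional mice, beside 0% of all probe sets. In germ-free mice 3 were lower in the descending colon and 0 higher, beside 11.8%. Between conventional jejunum and corpus 7 probe sets were higher and 0 lower, beside 709 higher and 985 lower of 9033 (18.8%), namely those of Vdr (at least 21.1-fold and 7.91-fold), Nr5a2 (8.29-fold and at least 3.28-fold), Hnf4a (7.38-fold), Nr1i2 (6.88-fold) and Nr1h3 (4.87-fold).

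Fgf15, the hormone that FXR induces in enterocytes, read 7.8, 85.3 and 3.3 on conventional jejunum 1, 2 and 3 and 11.9, 284 and 178 on germ-free jejunum 1, 2 and 3. The library labelled conventional rectum 1 read 77.8, and every other array outside the jejunum 7.3 or less. The germ-free jejunum exceeded the germ-free corpus at least 4.83-fold for Fgf15 (limma adjusted p = 0.0239) and the germ-free descending colon by the same bound (limma adjusted p = 0.0369), since both lay under the floor. Germ-free jejunum 1 lay under the floor as well. Both calls were lost without germ-free jejunum 2 or 3 and without single arrays of the other group.

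Other reported FXR targets did not share 1 direction. In the jejunum 2 of their 11 probe sets were higher and 5 lower than in the mean of the other 3 regions (median -0.41), again beside 24.8% of all probe sets. Apoc2, a cofactor of lipoprotein lipase, was 6.78-fold and Ang, an angiogenin, 1.69-fold higher. Apoe was 2.55-fold, the cytokine Il18 2.22-fold, the phospholipid transfer protein Pltp 2.18-fold, the kinase Pdk4 1.82-fold and the lipoprotein receptor Scarb1 1.46-fold lower. Apoc2 was also 34.9-fold higher in jejunum than corpus in conventional and 27.5-fold in germ-free mice. Without the 3 libraries these 3 values of Apoc2 were 11.8-fold, 63.8-fold and 78.2-fold, the last also when only the library labelled germ-free corpus 3, at 1067.5, was left out.

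Of the 26 list calls between the jejunum and the other regions, 11 held when each array was left out in turn, and all 26 held without the 3 libraries. Abcc3 and Pdk4 lost theirs without any 1 of 14 arrays, Slc10a6 without any 1 of 17 and Cdx2 without any 1 of 11. The other 11 were lost without 2 to 4 single jejunum arrays each. Of the 7 signalling calls between conventional jejunum and corpus, only the probe set of Nr5a2 at 3.28-fold lost its call to a single array, to conventional corpus 1, 2 or 3 or conventional jejunum 2 or 3. In germ-free mice 9 signalling probe sets were higher and 1 lower in jejunum than corpus, beside 774 higher and 1193 lower of 9033 (21.8%). Calls there were less stable. Over the 4 lists, 7 of 18 held when each array was left out, against 11 of 15 in conventional mice. Between germ-free descending colon and jejunum 1 of 8 list calls held.

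The lists were also counted on the 21 arrays. No probe set of the 4 lists was called there for microbial state in the corpus or the jejunum. In conventional jejunum against corpus the transporters then had 4 of 7 probe sets higher and 1 lower, against 2 and 1 with all libraries, the signalling genes 10 of 24 higher and 1 lower, against 7 and 0, and the other FXR targets 3 of 11 higher and 5 lower, against 2 and 3. Calls over all probe sets went from 18.8% to 25.8% in that comparison. In conventional descending colon against jejunum 3 of 7 transporters and 3 of 7 synthesis probe sets were lower and none higher, where with all libraries limma called 0 of either, with 1 and 3 at an unadjusted p under 0.05, and 11.5% of all probe sets were called on the 21 arrays against 0%.

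No probe set of the 4 lists was called by limma for microbial state, in any single region or in the mean over regions. In the jejunum 2 of the 7 transporters, 1 of the 7 synthesis, 2 of the 24 signalling and 1 of the 11 target probe sets had an unadjusted p under 0.05, and in the corpus 3, 0, 5 and 0. Over all 9033 these were 1185 in the jejunum and 817 in the corpus. Abcc2 had the lowest adjusted p in a single region. It read 211, 214 and 231 on the germ-free and 95.5, 86.5 and 29.5 on the conventional jejunum arrays, where 29.5 is the library with hindgut markers (1.81 ± 0.48; limma adjusted p = 0.0988). The ranges did not overlap, as for 15.4% of all probe sets. The lowest over the 4 regions was that of a probe set of Nr1i3, the receptor CAR, 1.71-fold higher in germ-free mice (0.77 ± 0.21; limma adjusted p = 0.0685).

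The probe sets most like each of the 4 genes were taken by Pearson correlation of log2 floored signal over the 24 arrays, which share 4 regions, 1 scaling and the 3 libraries in doubt. For Slc51a these were the brush border peptidase Enpep (r = 0.98), the small intestinal chemokine Ccl25 (0.97), 2 probe sets of the glycosyltransferase B4galnt2 (0.96 each) and the brush border receptor Cubn (0.96). For Slc10a2 they were Gsdme (0.88), B4galnt2 (0.83), Slc51a (0.81), Ido1 (0.80) and Reg3b (0.79). Correlations with Slc10a2 rest on the 7 arrays where it was above the floor, since the other 17 were set equal. The nearest to Nr1h4 were Pld1, Heph, Maoa, Abcg2 and Epcam, an epithelial adhesion molecule (0.94 to 0.95). The nearest to Nr0b2 were Habp2 (0.92), 2 probe sets of adenosine deaminase, Ada (0.89 each), Gltp and Dbi (0.88 each). Among the 4 genes, Slc51a and Slc10a2 had r = 0.81, Slc51a and Nr1h4 0.53, and Nr1h4 and Nr0b2 -0.61.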

How the data were processed

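Per the series' files, the authors deposited 1 table of linear signal intensity for 12488 probe sets on 24 arrays. How the signal was computed, by which software, and any detection call are not given in the sources used here. Genes were named through the platform annotation, which gave 10855 probe sets 1 gene. No scaling was added. Intensities under the 25th percentile (21.2) were set to it before log2, so a fold is a bound, written "at least", when every array of the lower group was at the floor. Testing required 3 or more arrays above 51.5, the 40th percentile, which kept 9033 probe sets, and left out 66 controls. The model was limma's (version 3.58.1; R 4.3.3; statmod 1.5.0), with 8 group means and a variance trend, two-sided, and adjusted by Benjamini-Hochberg. Errors are SD over arrays or SE of a fit. In simulated data for the jejunum status comparison with 9033 probe sets, 36 of 100 changes of 1 and 83 of 100 changes of 2 on the log2 scale were recovered, with 5 false calls. Changed probe sets were drawn from all those tested, with normal noise and no floor set again. These shares therefore do not give the recovery for the 4 genes. Slc51a had an SE of 1.52 in that comparison, and Slc10a2 lay at or under the floor on 17 of 24 arrays. The 4 genes, the lists and the motifs were chosen with earlier results of these data known. Named genes were the 4, the 5 probe sets of highest correlation with each, and list members that were called, or otherwise up to 4 of lowest p. Alternatives covered scaling, floor, filter, variance trend, a block by array number, a fit to the compared groups alone and omission of each array. Leaving out 3 or 4 libraries was added after seeing the data. Promoter windows came from RefSeq (GRCm38.p6), with all 4 genes matched by symbol; the files name no build.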

Additional observations from a re-analysis of the deposited data

How the results depend on the processing

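Each result was recomputed under the other normalizations, floors, filters, fits and left-out arrays: 914 of these values kept their direction and side of the threshold, 16 lost a call, 6 gained one and 35 changed direction. With array medians equalised 2 of the 4 genes were called between germ-free jejunum and corpus, and with no filter 1 was called between conventional jejunum and corpus and 1 between the jejunum and the other regions. Calls over all probe sets also moved between the settings that kept every array. For jejunum against corpus they ran from 422 to 2282 in germ-free and from 1484 to 1973 in conventional mice. For the jejunum against the rest they ran from 1997 to 2575. A 40th-percentile floor and a fit of the compared groups each left the count for conventional jejunum against corpus at 2, as Slc51a lost its call and Nr0b2 gained one. With the replicate block (array number and status as a random block, correlation 0.12) 2 and 1 genes were called between jejunum and corpus in conventional and germ-free mice and 2 for the jejunum against the rest, and it changed no other call of the 4 genes. Whether equal numbers pair the arrays is not given by the labels. Of same-numbered pairs, 4 of 18 conventional and 12 of 18 germ-free ones had a correlation of deviations above 0.1 (range -0.50 to 0.67), and of 12 pairs of regions only germ-free descending colon and rectum had all 3 above it (0.16 to 0.45), where none of the 4 genes was called with or without the block. Leaving out 1 array gave 0 to 1 genes called for microbial state in the corpus, 1 to 2 for conventional and 0 to 2 for germ-free jejunum against corpus, 0 to 1 for conventional descending colon against jejunum and 1 to 2 for the jejunum against the rest.

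Without 3 libraries 2 genes were called for germ-free jejunum against corpus, beside 29.1% of all probe sets. For descending colon against jejunum 2 were called in conventional mice, beside 11.5%, and 2 in germ-free mice, beside 19.4%. Without 4 (also germ-free descending colon 1) each of these counts was again 2, beside 2704, 1093 and 1809 of 9033 probe sets. For conventional jejunum against corpus 4 were then called, beside 2389 of 9033 probe sets. Quantile normalization gave Slc10a2 -0.021 for microbial state in the jejunum and -0.0081 over the regions. A floor at the 40th percentile gave it -0.17 and -0.037, 0.093 for descending colon against jejunum in germ-free mice (0.32 with the floor at the 10th), and gave Nr0b2 -0.14 for the jejunum against the rest. With the filter at the 60th percentile Slc10a2 was not tested.

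Without 3 and without 4 libraries the microbial difference was -0.51 for Slc51a and -0.41 for Slc10a2 in the jejunum, 0.012 for Slc51a and 0.23 for Nr0b2 in the rectum, and the difference of conventional rectum from descending colon was -0.25 for Nr1h4 and -0.014 for Nr0b2. The mean over regions of Nr0b2 was 0.030 without 3 and 0.041 without 4, where that of Slc10a2 was -0.069 and the descending colon difference of Nr0b2 0.0035.

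Leaving out 1 array, microbial differences ranged from -0.51 to 2.89 for Slc51a, -0.41 to 0.61 for Slc10a2 and -0.20 to 0.53 for Nr0b2 in the jejunum, from -0.13 to 0.087 for Nr0b2 in the descending colon, from -3.52 to 0.012 for Slc51a, -0.97 to 0.23 for Nr0b2 and -0.048 to 0.43 for Nr1h4 in the rectum, and from -0.11 to 0.18 for Slc10a2 over the regions. Regional differences ranged from -1.003 to 0.23 for Nr0b2 in germ-free jejunum against corpus, -0.70 to 0.22 for Slc10a2 in germ-free descending colon against jejunum, and -0.014 to 1.19 for Nr0b2 and -0.25 to 0.23 for Nr1h4 in conventional rectum against descending colon. Over all probe sets, the 42 calls for microbial state in the jejunum became 0 to 52 under other settings and 10 to 265 leaving out 1 array, and the 152 over the regions became 37 (replicate block) to 179 and 69 to 239. The 0 calls for microbial state in the corpus became up to 15, and up to 159 leaving out 1 array. For jejunum against corpus the 1967 germ-free calls became 422 to 2282 and, leaving out 1 array, 1101 to 2379, and the 1694 conventional ones 1017 to 1920. For descending colon against jejunum the 1068 germ-free calls became 242 to 1425 leaving out 1 array and the 0 conventional ones 0 to 540. The 2236 for the jejunum against the rest became 1401 to 2566. The cause of these shifts was not tested. Precision is limited by 3 arrays a group, and Slc10a2 by a signal at or under the floor on 17 of 24 arrays.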
